A study of Mus musculus with 6 samples.

Results

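Complement is a set of plasma proteins that liver cells make in bulk and that fibroblasts also secrete, and 9 of its genes were followed here in 3T3 cells. They are C1ra, C1s, C4b, C2, C3, Cfb, Serping1, Cd55 and Cd59a, taken as every non-control probe whose gene name in the scanner files was one of these. That gave 12 probes among 55681 on each array, and 9 gene names among 35527. 3T3 is an established line of mouse embryonic fibroblasts.

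Cells of the line were transfected at 50 nM with GapmeR Ntep, an antisense oligonucleotide that recruits RNase H to the long non-coding RNA Ntep, or with GapmeR control, and RNA was taken 48 h later. Both groups share the line, the transfection, the dose and the time. In 3 independent experiments, 1 culture per GapmeR was hybridised to a one-colour Agilent mouse array, so that each label has 3 arrays. All 6 file headers carry 1 slide barcode. The paper's array name gives a format with fewer arrays per slide, and this difference was not resolved. The comparison asks how the transcriptome differs when Ntep is targeted in fibroblasts.

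In the classical pathway, the proteases C1r and C1s sit in the C1 complex and cleave C4 and C2, whose fragments join into an enzyme that cleaves C3. In the alternative pathway, factor B pairs with a fragment of C3 and amplifies that cleavage. C1 inhibitor (Serping1) blocks C1r and C1s, and the membrane proteins CD55 and CD59 protect the cell's own surface; interferons and inflammatory cytokines are known to raise the transcription of several of these genes.

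Values are probe intensities on a linear scale after quantile normalization, with values under 20 set to 20; that floor is a bound, not a level. A probe was tested if its mean reached 50 in the brighter group. Differences are log2 of the arrays labelled GapmeR Ntep minus those labelled GapmeR control, and a gene is represented by its brightest probe.

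The target was read first. Ntep, named A630089N07Rik in the files, has 1 probe at chr16:98283712-98283771 of mm9. The arrays labelled GapmeR Ntep 1, 2 and 3 read 472, 91.5 and 226 for it, against 271, 272 and 361 on GapmeR control 1, 2 and 3. It was lower with GapmeR Ntep in experiments 2 and 3 and higher in experiment 1, so that the groups overlapped. The log2 difference was -0.48 (SE 0.58, limma adjusted p = 0.632), and an exact two-sided permutation test over the 6 arrays gave p = 0.7, where 0.1 is the smallest p that 3 arrays against 3 allow. Where this probe lies relative to the site that the GapmeR binds was not analysed here. Since the probe goes against the label in experiment 1, groups are called by their labels below, and the main counts are given also without that experiment.

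The cells carried the marker genes of fibroblasts on every array. Of 12 fibroblast markers, 9 were well above background on all 6 arrays, among them the collagens Col1a1, Col1a2 and Col3a1, the surface protein Thy1 and the cytoskeletal protein Vim. Lum and Fap, also fibroblast markers, were not tested because their means stayed under 50, and Fap was at the floor on all 6 arrays. None of the 10 fibroblast markers tested was called by limma, with 2 lower and 0 higher at an unadjusted p under 0.05, and their median log2 difference was -0.59. Summed over the list, the intensity was 579762, 737685 and 555833 on GapmeR Ntep 1, 2 and 3 and 859271, 892159 and 808744 on the controls, with Col1a2 the brightest; the list's part in the complement values was not tested. The hepatocyte genes Alb, Apoa1 and Ahsg were at the floor on all 6 arrays. In RNA from whole cultures, fewer cells that express a gene and less RNA per cell cannot be told apart.

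Of the 9 complement genes, 8 were tested, and each of these reached a mean of 50 in both groups. At an adjusted p under 0.05, 3 of 8 were lower with GapmeR Ntep (C1ra, C4b and Cfb), where 3.18% of 22078 genes tested were called lower and 1.99% higher. No member was higher by limma, and at an unadjusted p under 0.05 there were 7 lower and 0 higher, against 12.6% and 12.3% of all genes. By a fold of at least 2 with an unadjusted p under 0.01, 6 of 8 were lower (C2, C3 and Serping1 in addition), against 5.0% of all genes. In 7 of 8 every array labelled GapmeR Ntep was below every control array, against 15.4% of all genes. The median log2 difference was -1.73 over the 8 tested genes and 0.06 over all genes tested, whose quartiles were -0.39 and 0.43. With the experiment as a block, all 7 of these genes were called and Cd59a was not, where that fit called 7.41% of all genes lower and 6.5% higher. Leaving out experiment 1 gave 3 called genes (C1ra, C2 and C4b), where 1.65% of all genes were called lower and 1.20% higher. Without that experiment, 5 members passed the fold and unadjusted p, and the members' median was -1.75. The share of all genes past the fold and unadjusted p was not counted there. Calls also rested on single arrays: without GapmeR control 1, 2 or 3 or GapmeR Ntep 3, limma called 0 members, with 6 or 7 at an unadjusted p under 0.05, and without GapmeR control 2 or GapmeR Ntep 3 it called 0 of all genes tested.

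**Figure D1:**
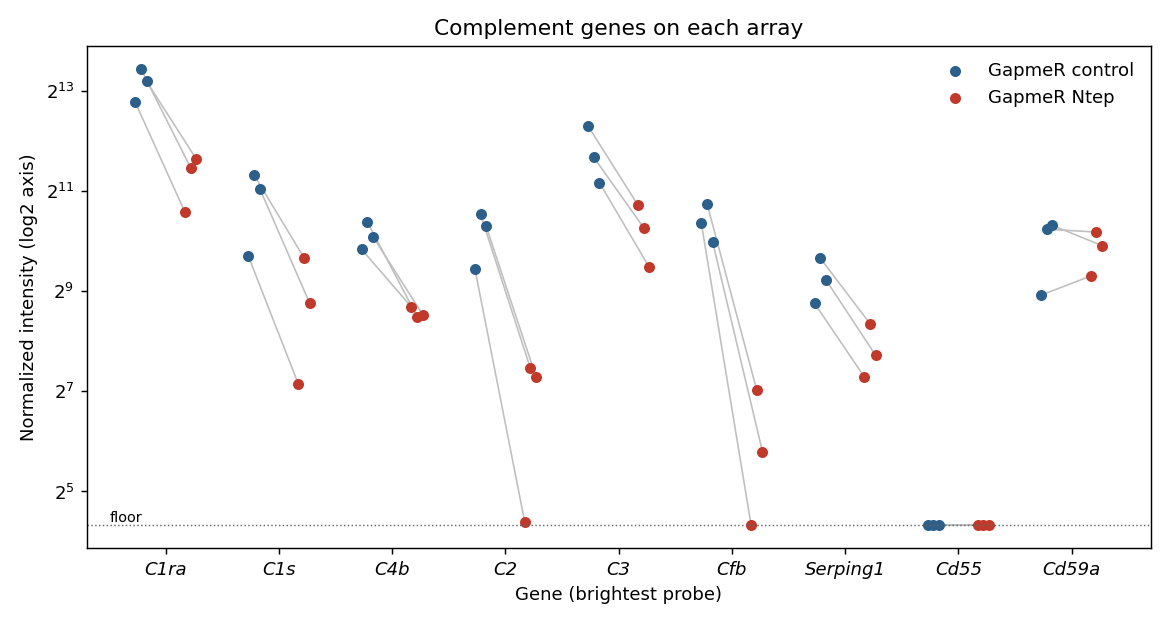
Normalized intensity (log2 axis) of the brightest probe of each of the 9 complement genes; each point is 1 array, blue for GapmeR control and red for GapmeR Ntep, and grey lines join the arrays of 1 experiment. The red points lie below the blue ones for 7 genes, Cd59a overlaps, and Cd55 sits at the floor of 20 on all 6 arrays.

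C1ra encodes the protease that starts the classical cascade. Its brighter probe (chr6:124473052-124473111, mm9) read 1528, 2825 and 3191 on GapmeR Ntep 1, 2 and 3, and 7019, 11152 and 9371 on GapmeR control 1, 2 and 3. Each array labelled GapmeR Ntep was well below the dimmest control array, and GapmeR Ntep 1 was the lowest. C1ra fell by 1.91 on the log2 scale (SE 0.34, adjusted p = 0.0381), and was lower in 3 of 3 experiments. A second probe of C1ra (chr6:124472674-124472733) read 506, 1631 and 1179 against 2827, 3698 and 3135. It did not overlap between groups either, with a log2 difference of -1.69 (SE 0.44) and an adjusted p of 0.081, so that the probes share the direction but not the call. Without any 1 of the 6 arrays C1ra was not called, with adjusted p from 0.0587 to 0.158.

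C1s, the protease that C1r activates, lies beside C1ra on chromosome 6. Its probe (chr6:124480775-124480834) read 142, 816 and 435 on GapmeR Ntep 1, 2 and 3, and 830.2, 2557 and 2121 on the control arrays. The groups were separate by a narrow margin, since GapmeR Ntep 2 at 816 almost reached GapmeR control 1. The log2 difference was -2.16 (SE 0.74, adjusted p = 0.142), and within experiments it was -2.55, -1.65 and -2.28. Without single arrays it ran from -2.73 (GapmeR Ntep 2 left out) to -1.47 (GapmeR Ntep 1 left out). The arrays of experiment 1 were the lowest of both groups, and with experiments as a block the adjusted p was 0.0310 (over the alternatives tried, 0.00993 to 0.368).

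C4b encodes the substrate of C1s. On GapmeR Ntep 1, 2 and 3 it read 411, 361 and 369.7, and on GapmeR control 1, 2 and 3 it read 914, 1336 and 1089.8. The 3 arrays labelled GapmeR Ntep lay close together, at 381 ± 27.0 (mean ± SD, n = 3), below controls at 1114 ± 212. C4b fell by 1.53 on the log2 scale (SE 0.20, limma adjusted p = 0.0257), in 3 of 3 experiments. Without GapmeR Ntep 3 or any 1 of the controls it was not called, with adjusted p from 0.0545 to 0.128. The files assign this probe (chr17:34865328-34865387) to transcripts of C4a as well, so that the copies cannot be told apart by it.

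C2 supplies the protease of the classical C3 convertase. It read 21.03, 176 and 156 on GapmeR Ntep 1, 2 and 3, against 699, 1488 and 1257 on the controls. All arrays labelled GapmeR Ntep were far below the controls, and GapmeR Ntep 1 was not well above background, so that 2 of 3 arrays measured it in that group. The log2 difference of -3.71 (SE 0.86) had an adjusted p of 0.0637, with -5.05 in experiment 1 and -3.08 and -3.01 in experiments 2 and 3. Without experiment 1 it was -3.04, with an adjusted p of 0.0461, and as a block over all experiments the adjusted p was 0.0337 (over the alternatives tried, 0.00601 to 0.214). It was also called without GapmeR Ntep 1 alone, at -2.72 with an adjusted p of 0.0470, and with normexp background correction, at -2.42 with an adjusted p of 0.0180.

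C3, where the pathways meet, has a probe printed in 10 spots on each array (chr17:57343416-57343475). It read 1688, 1237 and 714 on GapmeR Ntep 1, 2 and 3, and 5043, 3273 and 2304 on GapmeR control 1, 2 and 3. The groups did not overlap, and the order of experiments was the same in both, with experiment 1 highest. Before normalization, the SD over the 10 spots was between 2.12% and 19.7% of their mean, the widest on GapmeR Ntep 3. The log2 difference was -1.56 (SE 0.42, adjusted p = 0.0873), and the unadjusted p of 0.00997 lay just inside the limit of 0.01. With experiments as a block, C3 had an adjusted p of 0.0310 (over the alternatives tried, 0.0108 to 0.245). A dimmer C3 probe read 565, 452 and 359.7 against 1174, 777 and 658. That probe was also lower on each array labelled GapmeR Ntep, but by less, at -0.90 (SE 0.29, adjusted p = 0.127).

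Cfb, the protease of the alternative pathway convertase, had the most negative difference of the 8 genes. It was at the floor of 20 on GapmeR Ntep 1 and read 129.9 and 55.5 on GapmeR Ntep 2 and 3, against 1313, 1723 and 1013 on the controls. No array labelled GapmeR Ntep came near a control array, and 1 of 3 of them was well above background. Cfb fell by 4.65 on the log2 scale (SE 0.67, adjusted p = 0.0287); this size depends on the treatment of low values, being -2.85 with normexp background correction (adjusted p = 0.0105), and it was -3.96 without experiment 1, with an adjusted p of 0.0548 (over the alternatives tried, 0.00309 to 0.133). Without GapmeR Ntep 3 or any 1 of the controls it was not called, with adjusted p from 0.0663 to 0.133.

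Serping1 encodes C1 inhibitor, which inactivates C1r and C1s. It read 156, 327 and 211 on GapmeR Ntep 1, 2 and 3, and 433, 811 and 600.3 on GapmeR control 1, 2 and 3. The inhibitor was thus lower on the same arrays as the proteases, and its groups did not overlap. The log2 difference was -1.43 (SE 0.36, adjusted p = 0.0741), and it was even across experiments, at -1.47, -1.31 and -1.51. With experiments as a block its adjusted p was 0.0310 (over the alternatives tried, 0.00655 to 0.235). A dimmer Serping1 probe, well above background on 1 of 3 arrays labelled GapmeR Ntep, overlapped between groups (-1.25, SE 0.47, adjusted p = 0.171).

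Cd59a, which blocks the membrane attack complex, read 632, 1162 and 963 on GapmeR Ntep 1, 2 and 3, and 485, 1210.1 and 1275 on the controls. The groups overlapped, with the array labelled GapmeR Ntep higher in experiment 1 and lower in experiments 2 and 3. Its log2 difference was -0.03 (SE 0.45, adjusted p = 0.976), with a 95% interval from -1.12 to 1.06, and its sign turned with 75th percentile scaling and without GapmeR Ntep 1 (0.22), GapmeR control 2 (0.18) or GapmeR control 3 (0.22). The difference between Cd59a and the other genes was not tested. Cd55, which dissociates the convertases, was at the floor of 20 on all 6 arrays and not well above background on any, so that it has no fold.

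Further genes of the pathway came from a list of 46, of which 45 had a probe and 28 were tested, 7 of them through 1 group only. At an adjusted p under 0.05, 2 were lower and 0 higher (at an unadjusted p under 0.05, 8 lower and 5 higher), and the median over the 28 was -0.28, or -0.56 without those 7. With experiments as a block, 9 were called. Cr1l, the rodent regulator Crry that limits C3 activation on the cell surface, read 11503, 11294 and 12259 against 28872, 26641 and 26959. Its groups were tight and far apart, and it fell by 1.23 on the log2 scale (SE 0.15, adjusted p = 0.0243). Colec12, a scavenger receptor of the collectin family, read 1927, 1845 and 2131 against 3662, 6016 and 4463, and fell by 1.23 (SE 0.23, adjusted p = 0.0406). Without experiment 1 neither was called, with adjusted p of 0.0504 for Cr1l and 0.0604 for Colec12. Cr1l was also not called without GapmeR Ntep 3 or any 1 of the controls (0.0568 to 0.128), and Colec12 without any 1 of the 6 arrays (0.0598 to 0.150). Masp2, the protease of the lectin pathway, passed the fold with the unadjusted p alone, with a log2 difference of -1.97 (adjusted p = 0.0703), and was called without GapmeR Ntep 2 (-2.40, adjusted p = 0.0489). C4bp, a soluble inhibitor of the classical convertase, reached the minimum with GapmeR Ntep only, where 1 of 3 arrays was well above background and no control array was, so that its fold is a bound (at least 1.02-fold higher).

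Relatives of C1r and C1s lie on chromosome 6 within 100 kb of a probe of C1ra or C1s. C1rl and C1rb had log2 differences of -1.51 (adjusted p = 0.154) and -1.53 (adjusted p = 0.155), and overlapped between groups; C1rb was called without GapmeR Ntep 2 (adjusted p = 0.0412). C1s2, named Gm5077 in the files, read 191, 781 and 500.2 against 1075, 3144 and 2781, without overlap (-2.33, adjusted p = 0.0912). Whether probes of these copies also bind each other's transcripts was not analysed here. With experiments as a block, C1rl (0.0323) and C1s2 (0.0310) had adjusted p under 0.05, and C1rb (0.0545) did not.

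Among the genes with positive differences was Cfp, properdin, which stabilizes the alternative convertase. It read 5343, 5512.5 and 4559 against 2131, 3139 and 2599, and each array labelled GapmeR Ntep was above each control array. The log2 difference was 0.98 (SE 0.21), with an adjusted p of 0.0526, or 0.0445 with experiments as a block. Colec11, a lectin pathway recognition molecule, was at 1.79 (SE 0.56, adjusted p = 0.118), or 1.17 without GapmeR Ntep 1. C8g, a chain of a membrane attack complex protein, was at -2.70 (SE 0.84, adjusted p = 0.118), or -1.90 without GapmeR Ntep 1, and its dimmer probe was at -0.32 (adjusted p = 0.494). With experiments as a block, the brighter C8g probe had an adjusted p of 0.0323. C1qa, C8b, C9 and Mbl2 were at the floor on all 6 arrays.

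**Figure D2:**
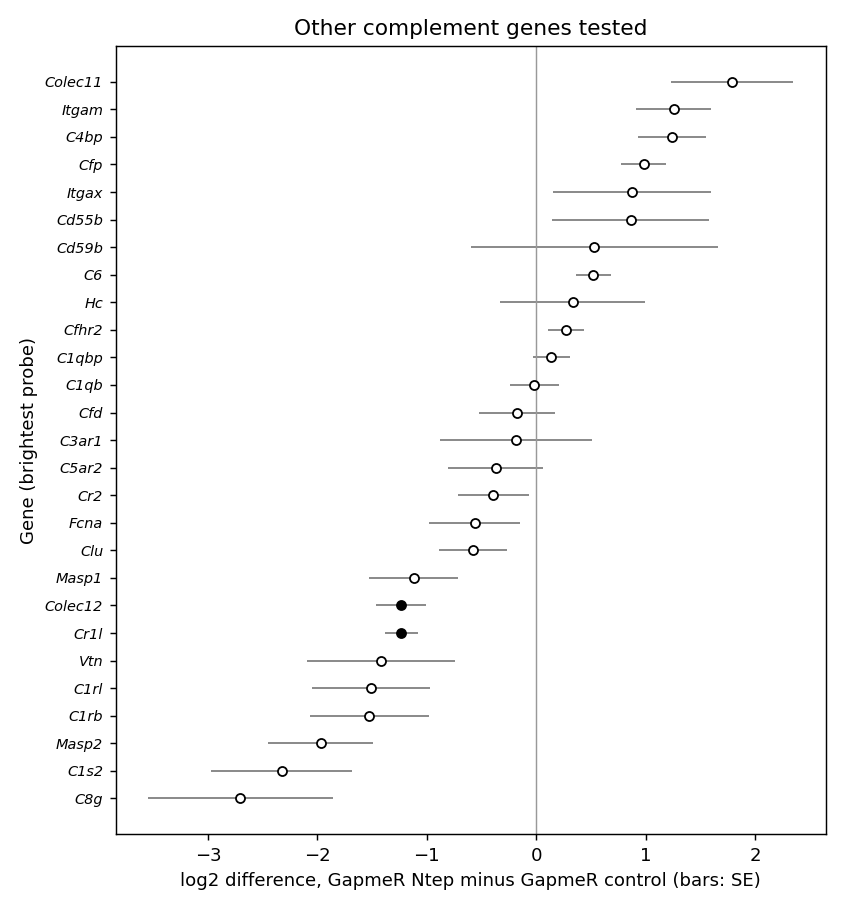
Log2 difference (GapmeR Ntep minus GapmeR control, bars show SE, 3 arrays per label) of other complement genes, from the 28 tested; filled points have an adjusted p under 0.05. Cr1l and Colec12 are filled, both at -1.23, and the values run from -2.70 for C8g to 1.79 for Colec11 (-1.90 and 1.17 without GapmeR Ntep 1).

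C4b, Cfb and C2 lie together on chromosome 17, in the class III region of the major histocompatibility complex, with probe starts from 34865328 to 34999575 in mm9. Of 20 other gene names with a probe within 100 kb of theirs, 17 were tested, and their median log2 difference was 0.06. The histone methyltransferase gene Ehmt2 was the 1 neighbour called there, at -0.83 (adjusted p = 0.0481), and 0 of the 17 reached -1. Stk19, between C4b and Cfb, was at 0.78 (adjusted p = 0.0684). Around all members, 40 of 48 neighbours were tested, with 3 lower, 0 higher and a median of 0.08. Gpr108, beside C3, was lower at -1.33 (adjusted p = 0.0422), and a transcript with an Ensembl name beside Serping1 at -2.63 (adjusted p = 0.0459). Ube2l6, beside that transcript, passed the fold with the unadjusted p alone, at -1.48 (adjusted p = 0.0733). Timm10, also near Serping1, was at 0.94 (adjusted p = 0.0679).

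**Figure D3:**
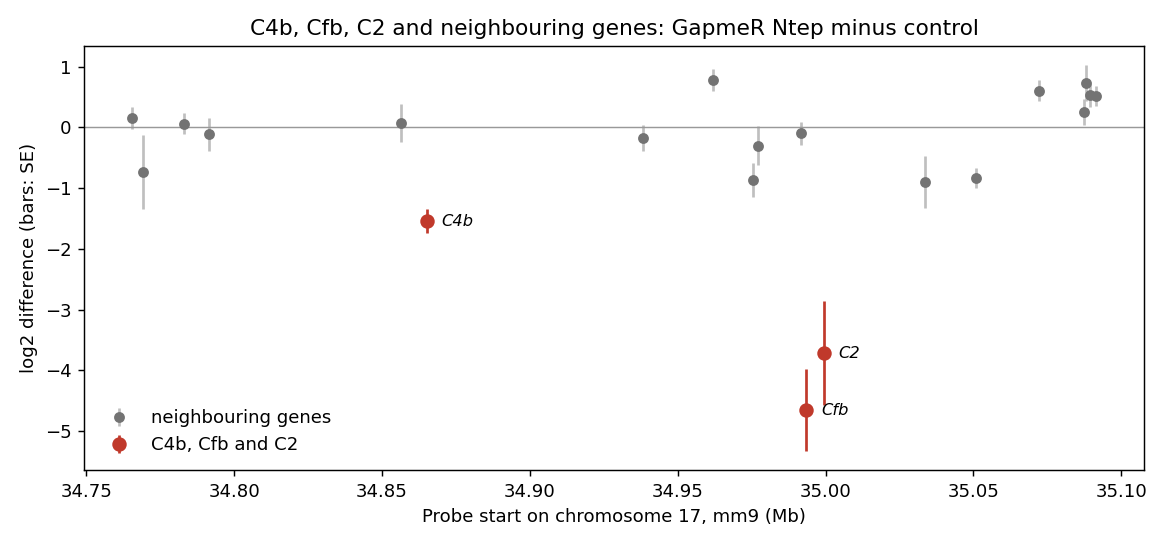
Log2 difference (GapmeR Ntep minus GapmeR control, bars show SE) against probe position on chromosome 17 of mm9 for C4b, Cfb and C2 (red) and the 17 tested neighbours (grey). The red points lie at -1.53, -4.65 and -3.71, while the grey ones lie between -0.90 and 0.78.

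The genes whose 6 values ran most like a member's were found by the root mean square difference of log2 values, each taken against its control mean. For Cfb they were Gm14446, Psmb9 and Gbp1 (0.33, 0.38 and 0.39), and for C2 they were Mx1, Slc2a6 and Cxcl9 (0.23, 0.29 and 0.33). C4b ran most like 2510016G02Rik, Nmi and Unc45b (0.13, 0.14 and 0.14), and C3 like LOC100044430, Ifna2 and Ttc17 (0.17, 0.19 and 0.20). For C1ra the nearest were Ly6c1, Cux1 and 2210011K15Rik (0.15, 0.17 and 0.18), and for C1s Zan, Angpt1 and Haghl (0.15, 0.16 and 0.18). Serping1 was nearest to AI429214, Vwa5a and Tceal1 (0.07, 0.08 and 0.12), and Cd59a to 2900024J01Rik, Glb1 and Txndc12 (0.07, 0.09 and 0.09). Mx1, Cxcl9, Psmb9 and Gbp1 are known as interferon-induced genes.

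Known inducers of complement genes and their receptors were read beside the members. Of 20 such genes, 17 were tested, 3 were lower and 0 higher (4 lower and 1 higher at an unadjusted p under 0.05), with a median of -0.18. Ifnb1, interferon beta, read 479, 1058 and 862 against 6055, 4440.4 and 2857, without overlap, and fell by 2.49 on the log2 scale (SE 0.40, adjusted p = 0.0335). All arrays labelled GapmeR Ntep were below all control arrays also in 7 of 8 tested complement genes, and in 15.4% of all genes. Ifngr1, a chain of the interferon gamma receptor, fell by 1.34 (SE 0.24, adjusted p = 0.0376). Without experiment 1, Ifnb1 (adjusted p = 0.0589) and Ifngr1 (adjusted p = 0.0805) were not called. Without GapmeR Ntep 1, GapmeR Ntep 3 or any 1 of the controls, Ifnb1 (0.0613 to 0.146) and Ifngr1 (0.0734 to 0.149) were not called either. Il6 overlapped between groups at -0.87 (adjusted p = 0.479), and Tnf, Il1b and Ifng were at the floor on all 6 arrays. The part of any of these genes in the complement values was not tested.

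Of 8 acute-phase products, 4 were tested and none was called by limma, with 1 lower and 1 higher at an unadjusted p under 0.05. Their median was 0.58, or 0.38 without Hp, which reached the minimum with GapmeR Ntep only. Saa3, serum amyloid A3, read 162, 175 and 239.5 against 101, 90.0 and 92.2, a log2 difference of 1.01 (SE 0.21, adjusted p = 0.0501, or 0.0477 with experiments as a block), and 0.42 with normexp background correction (adjusted p = 0.130). The pattern recognition gene Ptx3 was at -1.30 (SE 0.47, adjusted p = 0.158), without overlap, and at -0.77 without GapmeR control 1, its brightest array. Positive and negative differences thus both occurred among genes of the acute phase.

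Markers of other cell types were read because macrophages also make complement. Of 12 macrophage markers, 8 were tested, 0 were lower and 1 higher (0 lower and 4 higher at an unadjusted p under 0.05), with a median of 0.65, or 1.11 without the gene tested through 1 group. Of the 8, 3 were negative, among them Aif1 at -1.28 (adjusted p = 0.276), which overlapped between groups. Cd68, a lysosomal protein, read 11892, 11260 and 9404 against 5022, 4587 and 4380.5, a log2 difference of 1.21 (SE 0.17, adjusted p = 0.0287), and a dimmer Cd68 probe was at 0.68 (adjusted p = 0.143). Cd68 was not called without experiment 1 (adjusted p = 0.0560), nor without GapmeR Ntep 1, GapmeR Ntep 3 or any 1 of the controls (0.0590 to 0.139). Adgre1, Ptprc, Tyrobp and Fcgr3, also on the list, were not well above background on any array. Summed over the list, the intensity was 75513, 43116 and 50919 on GapmeR Ntep 1, 2 and 3, and 27846, 21193 and 22773 on the controls, with Itgam the brightest. A second tested probe of Itgam was at -0.03 where the brightest was at 1.26 (adjusted p = 0.0881), and one of Csf1r was at 0.44 where the brightest was at 3.19 (adjusted p = 0.151). That brightest Csf1r probe ran from 2.40 without GapmeR control 3 to 4.41 without GapmeR control 1. With experiments as a block, Cd14 (0.0332), Itgam (0.0397) and Csf1r (0.0387) had adjusted p under 0.05; Itgam was also called without GapmeR Ntep 2 (0.0497), and Csf1r without experiment 1 (0.0488). The list's part in the complement values was not tested. Of the 6 hepatocyte and 4 endothelial markers, 1 and 2 were tested and limma called none, with 0 and 1 at an unadjusted p under 0.05. Their sums lay between 120 and 561 (hepatocyte, brightest Serpina1a, from GapmeR control 3) and between 559 and 806 (endothelial, brightest Kdr).

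RefSeq promoter windows (GRCm38.p6) were at hand for 5 of the 9 genes: C1ra, C1s (as C1s1), C3, Cd55 and Cd59a. There was no entry for C4b, C2, Cfb or Serping1. In the 250 bases before each gene start, 9 patterns were searched on both strands, chosen as letters of factors known to act on immune genes, after the array values had been seen. The interferon-stimulated response element, GAAA and GAAA with 2 free bases between (in 2.98% of all 32851 windows), was found in Cd59a alone among the 5, as was TTTC and TTTC with 1 or 2 free bases between (5.38%; with 2 it is the first pattern read on the other strand). TTCNNNGAA (gamma-activated site, 7.02%), its subset TTCCNNGAA (4.06%) and TATAAA (12.4%) were in none. TTGCNNAA (C/EBP, 9.56%) was in C1s1 and C3, and GGGCGG (SP1, 32.7%) in Cd55. The NF-kappaB pattern, GGG and CC with 5 free bases between (45.8%), was in C1s1, C3, Cd55 and Cd59a, and its subset with A as the first of those 5 (17.6%) in C1s1, C3 and Cd55. With the 50 bases after the start included, C1ra also held TTCNNNGAA, TTCCNNGAA and TTGCNNAA, and C3 held TATAAA. These matches are descriptions of letters, and binding was not measured.

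The windows of C1ra (chr6:124512371-124512620, plus strand) and C3 (chr17:57228137-57228386, minus strand) are shown because both genes had lower values with GapmeR Ntep and no RefSeq gene overlaps these bases; capitals mark the pattern matches, of which C1ra has none. Both are given 5′ to 3′ in the direction of transcription.
C1ra: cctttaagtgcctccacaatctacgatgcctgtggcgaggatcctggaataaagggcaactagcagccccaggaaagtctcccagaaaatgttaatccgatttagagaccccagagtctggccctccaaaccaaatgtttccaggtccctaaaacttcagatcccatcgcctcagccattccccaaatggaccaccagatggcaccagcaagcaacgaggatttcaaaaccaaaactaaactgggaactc
C3: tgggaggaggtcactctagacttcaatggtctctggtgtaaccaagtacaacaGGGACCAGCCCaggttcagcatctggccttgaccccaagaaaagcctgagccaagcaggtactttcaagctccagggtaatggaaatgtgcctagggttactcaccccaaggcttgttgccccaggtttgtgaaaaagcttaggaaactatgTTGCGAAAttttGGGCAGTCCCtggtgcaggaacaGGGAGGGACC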

How the data were processed

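RNA of 6 cultures of 3T3 cells, 3 labelled GapmeR Ntep and 3 labelled GapmeR control, was measured on Agilent arrays. The authors deposited spot intensities from Agilent Feature Extraction 10.7.3.1, background-subtracted but not normalized between arrays, and a table of quantile-normalized intensities with a floor of 20. Here, the mean over spots of a probe was quantile normalized between arrays with a floor of 20, and its log2 was fitted without pairing in limma 3.58.1 (R 4.3.3) over the 30990 probes that reached a mean of 50 in either group, with Benjamini-Hochberg adjustment over all of them. The fit was tested on simulated data. Of the authors' values, 15.2% differed from these by over 0.01 on the log2 scale; 34 values differed by over 1 and the largest difference was 9.35, while for member probes the largest was 0.07. How the authors averaged spots could not be rebuilt.

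On each array, 43.7% to 53.3% of probes were well above background and 0 were saturated; the number of arrays limits the precision. The study's lists of arrays give same-numbered arrays 1 date and a ratio, and their residuals correlated at 0.47, 0.30 and 0.25, so a fit with experiments as a replicate block was run beside the unpaired one.

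Members and lists were chosen with earlier results of these data known. Named from the lists were genes past a call rule, at most 10 by size, genes whose absence bears on the list, up to 5 neighbours by smallest p, and the 3 genes most like each member. Others (C1rl, C1rb, C1s2, C8g, Cfp, Colec11, Il6, Ptx3, Ube2l6, Aif1, Itgam and Csf1r) were named after their values were seen. Older symbols were matched through RefSeq for GRCm38.p6, while probe positions are those of mm9 in the files. Alternatives covered normalization, background correction, floors, filters, outlier spots, variance models, the methods' t-test, the block, the choice of probe and the omission of each array; 6 more were tried after the data had been seen.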

Additional observations from a re-analysis of the deposited data

How the results depend on the processing

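Across 25 alternatives, 6 of them chosen after seeing the data, 7 of the 8 tested members kept a negative difference in each. Cd59a turned to 0.0011 with 75th percentile scaling and to 0.22, 0.18 and 0.22 without GapmeR Ntep 1, GapmeR control 2 and GapmeR control 3, and ran from -0.48 to 0.22 without single arrays; it was never called. That scaling moved the median of all genes from 0.06 to 0.22.

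The count of called members, 3 of 8, went to 7 with experiments as a replicate block (7.41% of all genes lower, 6.5% higher) and with array weights (16.1% and 17.5%), 5 with only probes well above background in a whole group (6.47% and 4.71%), 1 without a filter (0.555% and 0.574%) and 1 with limma fitted over all probes (2.73% and 2.74%). The methods' t-test called 0 after Benjamini-Hochberg, with 6 at an unadjusted p under 0.05 and 3 past the study's fold and p limits. Leaving out single arrays gave 0 to 3 called (0 without GapmeR Ntep 3 or any of the controls 1, 2 and 3, with 6 or 7 at an unadjusted p under 0.05 in limma). The count past a fold of at least 2 and p under 0.01 was 6, and 7 with the block and with array weights, 3 without a filter, with the t-test and with the fit over all probes, and 3 to 5 without single arrays. The cause of these shifts was not tested. In the main fit, 5.0% of all genes were lower past the fold and p limits, and that share was not counted for the alternatives.

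The members' median of -1.73 was -1.60 with normexp, -1.56 without a filter, where Cd55 at the floor enters, and -1.88 to -1.59 without single arrays. Other complement genes called went from 2 to 17 with array weights, 9 with the replicate block, 5 with an intensity trend, 4 with normexp and with the stricter filter, and 1 with no filter, the t-test or experiment 1 left out, and ran from 0 to 6 without single arrays. The block changed no other call among Ifnb1, Ifngr1 and Cd68, and added Saa3, Cfp, Cd14, Itgam, Csf1r, C1rl, C1s2 and C8g. The Ntep probe ran from -1.06 to 0.13 without single arrays, positive without GapmeR Ntep 2, and was called in none. Signal over background limits Cfb and C2 with GapmeR Ntep, where 2 and 1 of 3 arrays were not well above it.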
